A study of Arabidopsis thaliana with 12 samples.

Results

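The response of wild-type Arabidopsis thaliana seedlings to 1 h of dehydration was read from 6 Affymetrix ATH1 arrays, 3 of dehydrated and 3 of control wild-type seedlings (WT, accession Col-0), out of 12 arrays in the series. The genes named below were picked mostly by their response, from probe sets filtered by level. A gene high only after dehydration could pass this filter, so the filter was not independent of the response. The array's own controls were left out. A probe set was tested if its signal lay above the 40th percentile of its array on at least 3 of the 12 arrays. That left 14495 of the 22810 probe sets. Each probe set, a group of short probes on the array, stands for a gene. WT dehydrated seedlings, 1 week old, spent 1 h on Whatman paper under dim light, with the air held at 60% humidity and 22 °C, and WT control seedlings of the same age were not treated. Days in the growth chamber had 16 h of light with 24 °C, and nights lasted 8 h with 21 °C. The other 6 arrays held 46T, a line overexpressing the transcription factor WRKY46 (the labels do not name its promoter), with 3 arrays of dehydrated and 3 of control seedlings, and they entered here through the filter on level, the shared estimate of the spread, the values set side by side and the test of the difference between the lines. The move onto paper, the dim light and the loss of water came together in the treated group and cannot be told apart. Whole seedlings were extracted, so a fall in a transcript cannot be told apart from fewer cells that carry it.

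A plant that loses water builds up abscisic acid, closes its stomata and changes the transcription of a large part of its genome. The first transcripts to rise include those of transcription factors, of calcium sensors and of ubiquitin ligases, the enzymes that mark chosen proteins for breakdown. Many of these early genes also answer to touch, wounding and microbial elicitors. Slower responses include the dehydrins and late embryogenesis abundant (LEA) proteins that protect cell contents, the loosening or stiffening of cell walls, and a halt in growth.

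Of the 14495 tested probe sets, 1057 were higher (7.29%) and 623 lower (4.3%) in WT dehydrated than in WT control seedlings at a limma adjusted p below 0.05, 11.6% in all. A probe set that met this threshold is called here. All levels below are log2 MAS5 signals, a difference is the mean of the WT dehydrated arrays minus the mean of the WT control arrays on that scale, and its error is the standard error (SE) of the fit. The rises were larger than the falls. Among the calls, 601 were at least 2-fold higher (4.15%) and 100 at least 2-fold lower (0.69%). At least 4-fold changes counted 184 higher and 8 lower, and at least 8-fold changes 68 higher and 0 lower by the same limma calls. The median difference was 1.13 over the rises and -0.72 over the falls, against -0.02 over all tested probe sets. Probe sets called at least 2-fold higher had a median level of 9.23 in WT dehydrated and 7.39 in WT control seedlings, while those called at least 2-fold lower had 7.74 in WT dehydrated and 9.09 in WT control seedlings. The values of both groups did not overlap for 1047 of the 1057 rises and 612 of the 623 falls; over all tested probe sets the dehydrated values lay wholly above the control values for 1940 (13.4%) and wholly below for 1872 (12.9%).

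The balance of rises and falls rested on the arrays and the scaling. Centring every array on its median gave 835 rises and 876 falls, so that 48.8% of the calls were rises, against 62.9% with the authors' scaling. The WT control arrays were less alike than the others: rank correlations between replicates were 0.973 to 0.975 among WT dehydrated and 0.910 to 0.963 among WT control arrays. On WT control replicate 1, 1867 tested probe sets lay over 1 log2 unit from the mean of the other control arrays, and on WT control replicates 2 and 3 there were 1272 and 324, against 203 to 209 on the WT dehydrated arrays. Without WT control replicate 1 the calls numbered 1221 higher (8.42%) and 1151 lower (7.94%), and the fit of every probe set was repeated without it. Without WT dehydrated replicate 1 the counts were 623 higher and 210 lower, and without WT dehydrated replicate 2 they were 649 higher and 220 lower. A fit of the WT arrays alone called 607 higher and 144 lower. For single genes below, mainly the arrays whose removal ended a call are given. Many of those calls also ended in the fit of the WT arrays alone, and some with median centring. As a check of the labelled tissue, the 8 tested photosynthesis genes taken as markers of the shoot had a median level of 14.2 in WT dehydrated and 14.3 in WT control seedlings. EXPA7, an expansin of root hairs, was at 5.21 in WT dehydrated and 5.62 in WT control seedlings, and OLEO3 and PAP85, of the mature seed, were at 4.71 to 4.72 in WT dehydrated and 5.33 to 5.34 in WT control seedlings. None of these 3 genes reached the level needed for testing, and neither did PRX52, a peroxidase on the root list (2.79 in WT dehydrated and 3.27 in WT control seedlings). The other members of the marker lists were well above it. The lists were drawn by the letters of gene symbols, so a member need not be specific to its tissue. The root and pollen lists therefore say little on the labelled tissue. On the root list PRXR1 was at 12.95 in WT dehydrated and 12.83 in WT control seedlings and PRXIIF at 10.46 in WT dehydrated and 10.62 in WT control seedlings; on the pollen list APK1A was at 9.54 in WT dehydrated and 9.53 in WT control seedlings and TUA1 at 9.86 in WT dehydrated and 9.84 in WT control seedlings.

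The annotation names a single gene for 7834 of the tested probe sets, and 1168 of these carry a gene name and not only a locus number. Among the 1168, 72 rose (6.16%) and 58 fell (4.97%). What follows on function rests on these genes, and the counts of gene classes are to be read against those percentages. A gene given by locus number alone has no annotated function in the tables used here. A class counts only genes whose symbols or synonyms match it, so family members without them are missed.

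PUB19 had the largest rise of all. PUB19 is a U-box ubiquitin ligase known to damp the response to abscisic acid and to drought. Its level was 11.40, 12.15 and 11.22 in WT dehydrated seedlings, against 3.89, 4.99 and 4.02 in WT control seedlings. The difference was 7.29 ± 0.28 (SE; limma adjusted p = 5.4e-09), and it was 5.47 when 50 was added to each linear signal, since the control level was near the bottom of the scale. WRKY53, a transcription factor of leaf senescence and defence, was at 10.46, 10.66 and 10.58 in WT dehydrated seedlings and at 5.13, 6.05 and 4.89 in WT control seedlings (difference 5.21 ± 0.27; 4.09 with the added 50). For both genes every dehydrated value lay more than 4 log2 units above every control value.

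**Figure D1:**
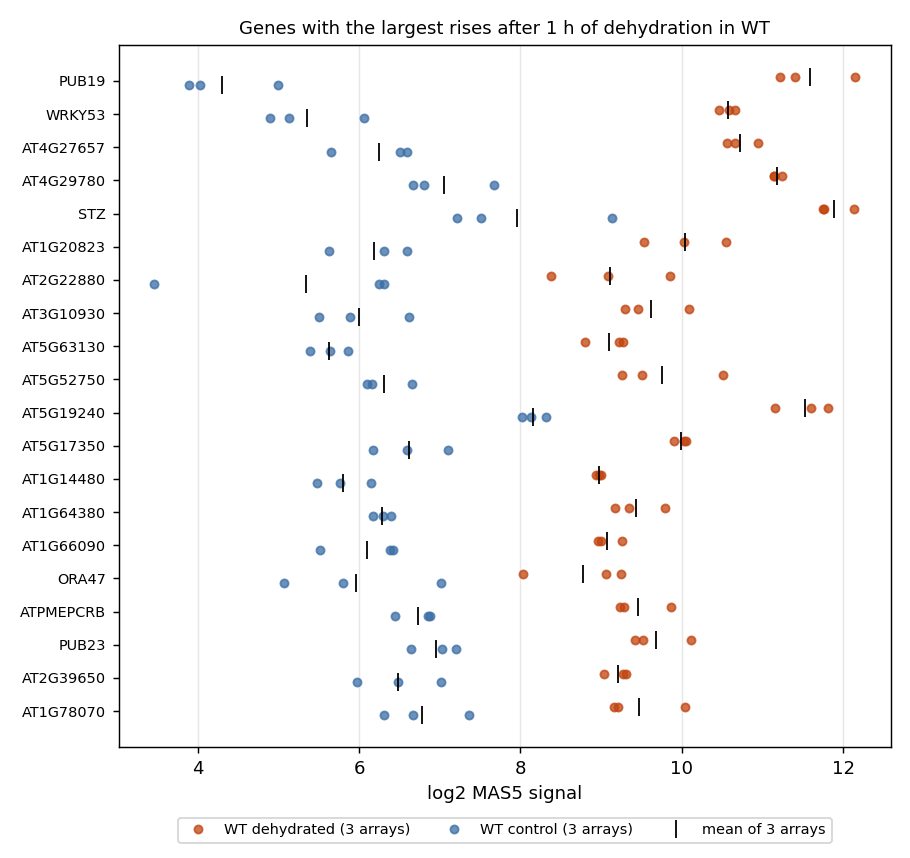
The 20 genes with the largest rises, 1 row a gene. The horizontal axis is the log2 MAS5 signal, dots are single arrays (3 WT dehydrated in red above 3 WT control in blue) and black ticks are means of 3 arrays. In every row the dehydrated dots lie to the right of all control dots, which was a condition for choosing these genes.

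Transcription factors were few in the annotation, and those called are given by family. STZ, the only tested gene of the C2H2 zinc finger list and also called ZAT10, a repressor in abiotic stress responses, was at 12.14, 11.76 and 11.75 in WT dehydrated seedlings and at 7.21, 9.14 and 7.51 in WT control seedlings, a difference of 3.93 ± 0.36 (limma adjusted p = 6.4e-06). Control replicate 2 was the highest of the controls, and no control value reached the dehydrated ones. ORA47, the only tested gene of the AP2/ERF list and a factor that switches on jasmonate synthesis genes, was at 9.05, 9.24 and 8.03 in WT dehydrated seedlings and at 7.01, 5.07 and 5.80 in WT control seedlings (difference 2.82 ± 0.41). Of 6 tested WRKY genes, 2 rose and 0 fell (median difference 0.37). The second was WRKY6, a regulator of senescence and phosphate supply, at 8.77, 8.20 and 8.15 in WT dehydrated and 6.07, 7.17 and 6.50 in WT control seedlings (1.79 ± 0.27). All 6 WRKY differences were positive, the lowest at 0.15. Of 13 tested bZIP genes, 1 rose and 1 fell (median 0.07). BZIP60, the membrane-held factor released when unfolded proteins gather in the endoplasmic reticulum, rose by 1.43 ± 0.19, with 11.26, 11.16 and 10.87 in WT dehydrated and 10.16, 9.40 and 9.45 in WT control seedlings. The bZIP gene that fell, AT2G40620 (bZIP18), differed by only -0.59 ± 0.18, and its call ended without WT control replicate 1 (-0.53) or 3 (-0.54) and without any of the 3 WT dehydrated arrays (-0.58 to -0.60).

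Ubiquitin ligases of the plant U-box (PUB) family had the largest median among the classes with at least 3 tested genes. Of 8 tested members, 6 rose and 0 fell, with a median difference of 1.39. PUB22, PUB23 and PUB24 are close relatives that restrain immune signalling, and PUB22 and PUB23 also restrain drought responses. PUB23 was at 10.11, 9.51 and 9.42 in WT dehydrated and 7.20, 6.64 and 7.02 in WT control seedlings (2.73 ± 0.30). PUB24 was at 9.16, 8.52 and 8.63 in WT dehydrated and 6.51, 6.30 and 6.32 in WT control seedlings (2.39 ± 0.19). PUB22 was at 9.19, 8.85 and 8.92 in WT dehydrated and 7.01, 7.94 and 7.34 in WT control seedlings (1.56 ± 0.25). PUB25 and PUB26, which mark the immune kinase BIK1 for breakdown, rose by 0.91 ± 0.16 and 1.22 ± 0.22. The 2 members not called were PUB43 (-0.03) and PUB49 (-0.40). The 6 calls all held without any single WT array. BIK1 itself, the kinase downstream of immune receptors, differed by 0.67 ± 0.20 (limma adjusted p = 0.0455), a call that ended without WT control replicate 1 (0.59), 2 (0.71) or 3 (0.72) and without WT dehydrated replicate 1 (0.45) or 3 (0.69). Of 6 tested genes on the RING finger list, 1 rose, ATL5, by 1.55 ± 0.30 (median of the class 0.08).

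Of 8 tested EF-hand calcium sensors, 4 rose and 0 fell (median difference 0.39). CML38, a calmodulin-like protein known from touch and low-oxygen responses, was at 9.51, 9.35 and 8.58 in WT dehydrated and 6.68, 7.26 and 6.26 in WT control seedlings (2.41 ± 0.31; limma adjusted p = 1.7e-04). CML23 was at 7.43, 7.09 and 6.75 in WT dehydrated and 5.95, 5.42 and 5.50 in WT control seedlings (1.47 ± 0.30; 0.91 with 50 added to each signal). CML37 was at 7.20, 6.61 and 6.69 in WT dehydrated and 4.48, 1.94 and 4.68 in WT control seedlings. Its difference of 3.14 ± 0.69 rested on control values near the floor: it was 1.31 with 50 added, and the call ended with signals under the 40th percentile set to that percentile (0.54) and without WT dehydrated replicate 1 (2.95). CML42 rose by 0.62 ± 0.16, a call that ended without WT control replicate 3 (0.57) or WT dehydrated replicate 1 (0.59) or 2 (0.65). The lowest difference in the class was that of CML43 (-0.79), which was not called. Calmodulin-binding IQD proteins, a family looked at only after the values were seen, moved both ways: IQD23 rose by 1.21 ± 0.22 and IQD21 fell by 0.79 ± 0.16, with 9 other tested members not called.

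**Figure D2:**
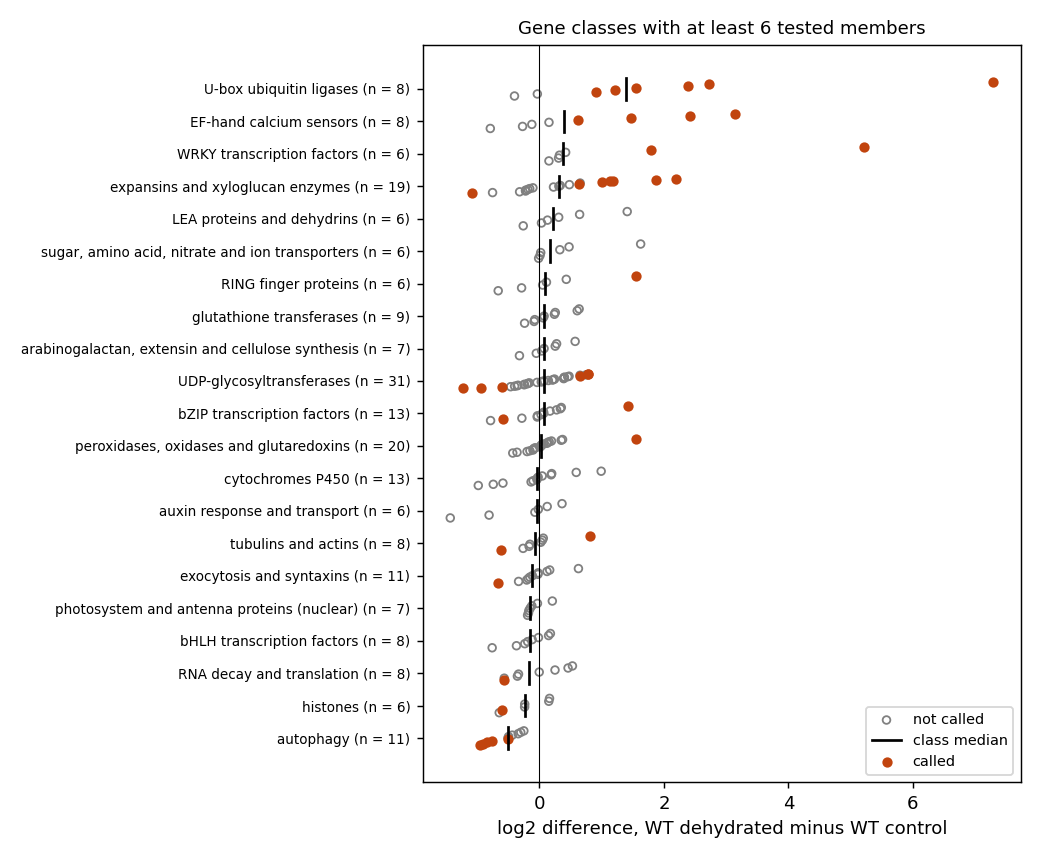
Differences of single genes in the classes with at least 6 tested members. The horizontal axis is the log2 difference, WT dehydrated minus WT control (3 arrays each); each circle is a gene, filled where called, black bars are class medians and n is the number of tested genes. U-box ligases reach furthest right, with a median of 1.39, and all 11 autophagy genes lie left of 0.

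Genes of hormone synthesis, transport and response were few in the annotation. Calls among them went both ways, but the lower ones were chosen after the values were seen. OPCL1, which activates a precursor of jasmonic acid in the peroxisome, was at 9.63, 8.82 and 8.57 in WT dehydrated and 6.69, 7.37 and 7.52 in WT control seedlings (1.81 ± 0.29). OPCL1 was the only tested enzyme of that class. AT5G52050 (DTX50), an exporter of abscisic acid, was at 10.06, 9.19 and 9.07 in WT dehydrated and 6.96, 6.66 and 7.32 in WT control seedlings (2.46 ± 0.27), and it was chosen after the values were seen. GID1B, a gibberellin receptor, was the only 1 of 3 tested gibberellin genes to be called (0.81 ± 0.23). Its call ended without WT control replicate 1 (0.61) or 2 (0.79) and without WT dehydrated replicate 1 (0.62) or 3 (0.85). The ethylene, abscisic acid, and brassinosteroid and cytokinin lists held 1 tested gene each, and none was called (-0.36, -0.39 and -0.29). The ethylene gene, EIN3, was called lower without WT control replicate 1 (-0.52). Outside these lists, and chosen after the values were seen, RTE1 and EXO were called lower (-0.65 ± 0.20 and -0.58 ± 0.17). RTE1 is of ethylene signalling, and EXO is a brassinosteroid-responsive gene. The call of RTE1 ended without WT control replicate 1 (-0.58) or 2 (-0.54) or WT dehydrated replicate 1 (-0.56) or 2 (-0.55). That of EXO ended without WT control replicate 1 (-0.53) or 3 (-0.55) or WT dehydrated replicate 1 (-0.43) or 2 (-0.53). None of the 6 auxin genes was called (median -0.05). IAA29, an auxin response repressor, had the lowest difference among them, with 6.81, 7.31 and 7.96 in WT dehydrated and 8.41, 9.29 and 8.67 in WT control seedlings (-1.43 ± 0.49; limma adjusted p = 0.0750), and was called without WT control replicate 1 (-1.62).

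Cell wall genes rose more often than they fell. Of 19 tested expansins and xyloglucan enzymes, which loosen or reconnect the wall's polysaccharides, 6 rose and 1 fell (median difference 0.31). XTH18 was at 10.92, 9.23 and 9.89 in WT dehydrated and 8.50, 7.61 and 8.31 in WT control seedlings (1.88 ± 0.35). Its neighbour on the chromosome, XTH19, rose by 1.13 ± 0.26, a call that ended without WT dehydrated replicate 1 (0.86). XTH19 was also not called in a fit of the WT arrays alone. EXPB3 rose by 1.18 ± 0.26 and EXLA3 by 2.19 ± 0.48, and both calls also ended without WT dehydrated replicate 1 (1.04 and 1.98). EXLA3 had low control values, and its difference was 1.09 with 50 added to each signal. Its call also ended with the floor at the 40th percentile (0.63) and in a fit of the WT arrays alone. EXPA15 (1.00 ± 0.24) and EXPA4 (0.64 ± 0.17) also rose, EXPA15 not without WT dehydrated replicate 1 (0.98) or 2 (0.89), and EXPA4 not without WT control replicate 2 (0.58) or 3 (0.62) or WT dehydrated replicate 1 (0.62) or 2 (0.63). EXPA16 fell by 1.09 ± 0.29, a call that ended without WT control replicate 3 (-0.85) or any WT dehydrated array (-1.06 to -1.13). ATPMEPCRB, a pectin methylesterase, was at 9.87, 9.28 and 9.24 in WT dehydrated and 6.45, 6.85 and 6.88 in WT control seedlings (2.74 ± 0.24) and was the only 1 of 4 tested pectin genes called. GH9C2, an endoglucanase, was at 9.87, 9.67 and 9.32 in WT dehydrated and 7.64, 8.02 and 8.35 in WT control seedlings (1.61 ± 0.24). Of the 5 tested genes of its family, GH9, picked after the values were seen, 2 rose and 0 fell; the second, GH9B8 (1.37 ± 0.34), was not called without WT dehydrated replicate 1 (1.20) or 2 (1.36). None of the 7 tested genes on the list for arabinogalactan, extensin and cellulose synthesis was called (median 0.07). All of them except AT3G09000 were cellulose synthase-like (CSL) genes. No cellulose synthase (CESA) symbol was among them, so the list says little on cellulose, arabinogalactan or extensin genes.

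Of 6 tested transporters of the nitrate and peptide (NPF) family, a family picked after the values were seen, 4 rose and 0 fell (median difference 0.93). GTR1, which carries glucosinolates, the sulphur-rich defence compounds of this plant family, was at 10.36, 10.04 and 9.20 in WT dehydrated and 7.72, 7.54 and 7.77 in WT control seedlings (2.19 ± 0.27). GTR2, the second glucosinolate carrier, differed by 0.55 ± 0.24 and AT1G68570 by 0.34 ± 0.20, and neither was called. AT2G26690 (NPF6.2), a nitrate carrier of the petiole, was at 11.42, 11.24 and 10.90 in WT dehydrated and 10.40, 10.34 and 10.39 in WT control seedlings (0.82 ± 0.16). AT3G21670 (NPF6.4) rose by 1.21 ± 0.33 and AT1G59740 (NPF4.3) by 1.04 ± 0.23. The call of AT3G21670 ended without WT control replicate 2 (0.92) or WT dehydrated replicate 1 (0.99) or 2 (1.19), and that of AT1G59740 without WT dehydrated replicate 1 (0.98). None of the 6 tested SWEET sugar carriers was called (median 0.17), although 3 were called higher without WT control replicate 1, among them SAG29 (2.08, against 1.63 with all arrays).

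Genes of redox and specialised metabolism that rose included several single steps of known pathways, most of them chosen after the values were seen. GR1, a glutathione reductase, was at 11.82, 11.45 and 11.28 in WT dehydrated and 10.67, 10.73 and 10.77 in WT control seedlings (0.80 ± 0.16). APS3, an ATP sulphurylase at the entry of sulphate assimilation, was at 9.38, 9.18 and 9.20 in WT dehydrated and 8.50, 8.18 and 8.47 in WT control seedlings (0.87 ± 0.18). CCR2 (AT1G80820), a cinnamoyl-CoA reductase of lignin-type phenolics, rose by 1.56 ± 0.28 (1.03 with 50 added to each signal). UGT78D2, which puts glucose on flavonols and anthocyanidins, rose by 0.78 ± 0.17, with every dehydrated value between 9.33 and 9.78 and every control value between 8.67 and 8.88. Of 10 tested beta-glucosidases, 1 rose and 1 fell (median -0.06): BGLU40 rose by 1.89 ± 0.33 and BGLU16 fell by 0.90 ± 0.26. The call of BGLU16 ended without WT control replicate 2 (-0.63) or 3 (-0.89) and without WT dehydrated replicate 1 (-0.74) or 2 (-0.85). Of 31 tested UDP-glycosyltransferases, which attach sugars to small molecules, 3 rose and 3 fell (median 0.07). UGT87A2 rose by 0.78 ± 0.17, a call that ended without WT dehydrated replicate 1 (0.73). UGT73B5 rose by 0.65 ± 0.19, a call that ended without any array but WT control replicate 3 (0.51 to 0.69). Of 20 tested genes on the list of peroxidases, oxidases and glutaredoxins, GRX480, a glutaredoxin that binds TGA factors, was the only one called (1.55 ± 0.33). Without WT dehydrated replicate 1 it differed by 1.29 and was not called. The list also held thioredoxins, such as TRXF2 and TO1, and none of its symbols stood for an oxidase.

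Signalling and membrane proteins chosen after the values were seen added to the rises. TET8, a tetraspanin of secreted vesicles, was at 13.26, 13.42 and 13.25 in WT dehydrated and 12.10, 11.70 and 11.45 in WT control seedlings (1.56 ± 0.15; limma adjusted p = 9.6e-06). SRC2, a C2-domain protein, was at 13.88, 13.91 and 13.87 in WT dehydrated and 13.02, 12.47 and 12.80 in WT control seedlings (1.12 ± 0.14). PTI1-4, a kinase of oxidative burst signalling, was at 10.53, 10.47 and 10.32 in WT dehydrated and 9.05, 9.27 and 9.29 in WT control seedlings (1.24 ± 0.13). ATSIK, another protein kinase, rose by 0.81 ± 0.16, and Cpn60beta2, a subunit of the plastid chaperonin, rose by 1.09 ± 0.23. AR781 rose by 2.59 ± 0.26 and ACA.l by 1.14 ± 0.20. In these 7 genes the groups did not overlap, and each call held in every alternative, meaning here and below every alternative in which the gene was tested.

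The rule for the largest rises asked for a single named gene and no overlap. It also asked for a level at or above the median and a call without WT control replicate 1. The other rises it named had only a locus number in the annotation used here, which does not mean that their functions are unknown. AT4G27657 (4.48 ± 0.24), AT4G29780 (4.13 ± 0.22), AT1G20823 (3.86 ± 0.31), AT2G22880 (3.77 ± 0.60) and AT3G10930 (3.62 ± 0.28) were the first 5 among them. AT2G22880 had the widest error of these 5 and 1 low control value, at 9.85, 8.37 and 9.09 in WT dehydrated and 6.25, 6.31 and 3.46 in WT control seedlings. AT5G63130, AT5G52750, AT5G19240, AT5G17350, AT1G14480 and AT1G64380 followed with differences of 3.15 to 3.47, and AT1G66090, AT2G39650 and AT1G78070 with 2.69 to 2.97. Other locus numbers that rose as far did not meet the rule, such as AT5G64870 (3.52). Some risers lay side by side in the genome. AT4G27652, AT4G27654 and AT4G27657, in a row, rose by 2.02, 2.48 and 4.48, and the adjacent AT5G52750 and AT5G52760 by 3.46 and 3.83. Over the 2464 adjacent pairs in which both genes were tested, 16 had both genes called higher, 8 both lower and 14 opposite calls. A member called higher had a neighbour called higher in 10.9% of cases, against 5.97% called higher among all members of such pairs; a member called lower had a neighbour called lower in 6.93%, against 4.69%.

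The falls were smaller, and those with a function spread over many roles. AT5G02540 had the largest among the genes named by the rule, at 7.24, 6.97 and 7.70 in WT dehydrated and 9.33, 9.87 and 9.13 in WT control seedlings (-2.14 ± 0.25; limma adjusted p = 7.3e-05). AT5G61590 (DEWAX), an AP2/ERF repressor of cuticular wax synthesis, was at 10.35, 10.91 and 10.57 in WT dehydrated and 12.54, 11.94 and 11.97 in WT control seedlings (-1.54 ± 0.21; limma adjusted p = 3.3e-04). It was counted with the wax genes and not in the AP2/ERF list, and was the only 1 of 3 tested lipid transfer and wax genes called. In both genes no dehydrated value reached the control values. AT3G62550 and AT5G25840 fell by 1.65 ± 0.28 and 1.62 ± 0.24, and AT3G62820 by 1.43 ± 0.23. AT4G16710, AT1G22690, AT4G21870, AT3G47160 and AT5G14410 fell by 1.27 to 1.07, and these 5 calls, like the 5 before them, held in every alternative.

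**Figure D3:**
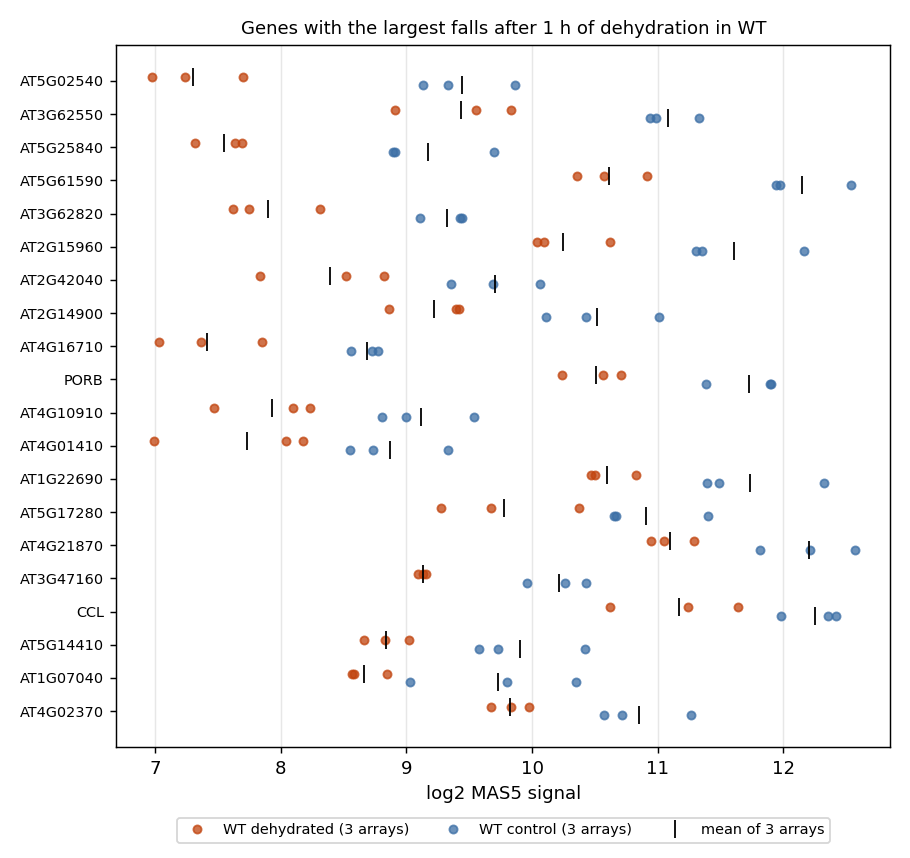
The 20 genes with the largest falls, 1 row a gene. The horizontal axis is the log2 MAS5 signal, dots are single arrays (3 WT dehydrated in red above 3 WT control in blue) and black ticks are means of 3 arrays. In every row the dehydrated dots lie to the left of all control dots, which was a condition for choosing these genes. The gap is smaller than in the largest rises.

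Of the 20 largest falls, PORB is described further on, and the calls of the remaining 9 depended on single arrays. Without WT dehydrated replicate 1 the calls of AT2G15960 (-1.25), AT2G42040 (-1.03), AT4G10910 (-0.95), AT5G17280 (-1.08), AT1G07040 (-1.02) and CCL (-0.81) ended. Without WT dehydrated replicate 2 those of AT2G15960 (-1.28), AT2G14900 (-1.11), AT4G01410 (-0.76), AT5G17280 (-0.88), AT1G07040 (-1.01) and AT4G02370 (-0.95) ended. AT1G07040 was also not called without WT control replicate 2 (-0.75) or 3 (-1.02). With all arrays these 8 genes other than CCL differed by -1.03 (AT4G02370) to -1.36 (AT2G15960), and CCL, whose transcript is known to be short-lived and under the clock, by -1.08 ± 0.27.

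Among the autophagy genes, 5 of 11 tested fell and 0 rose. Autophagy wraps cell contents in membranes for breakdown in the vacuole, and ATG8 is the small protein that coats these membranes. The median difference of the 11 was -0.51, and all 11 differences were negative, between -0.95 and -0.25. ATG8F was at 11.51, 11.83 and 12.04 in WT dehydrated and 12.88, 12.82 and 12.53 in WT control seedlings (-0.95 ± 0.17; limma adjusted p = 0.00241). APG8H (also ATG8I) was at 10.91, 10.87 and 10.81 in WT dehydrated and 11.97, 11.87 and 11.46 in WT control seedlings (-0.90 ± 0.15). Both calls held in every alternative. ATG8E fell by 0.84 ± 0.21 and ATG8C by 0.77 ± 0.21; for both, WT control replicate 1 was the highest of the 3 controls, at 12.09 for ATG8E and 11.41 for ATG8C. Without that array the differences were -0.57 and -0.50, both still called, and without any 1 of the WT dehydrated arrays neither was called (-0.82 to -0.86 for ATG8E, -0.74 to -0.80 for ATG8C). AT5G66930 (ATG101), a part of the kinase complex that starts autophagy, fell by 0.51 ± 0.16, a call that ended without any array but WT control replicate 2 (-0.42 to -0.54). Without WT control replicate 1, 4 of the 11 were called lower and the median was -0.42. ATG8 transcripts are closely related in sequence, so the values of single members are uncertain.

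Chlorophyll synthesis was represented by PORB, the enzyme that makes chlorophyllide in the light, at 10.24, 10.56 and 10.71 in WT dehydrated and 11.39, 11.90 and 11.90 in WT control seedlings (-1.22 ± 0.26). The call held in every alternative (-1.39 without WT control replicate 1). PORB is also known to answer to light, and the dim light of the treatment cannot be told apart from dehydration. The nuclear genes of the photosystems and antenna did not follow: 0 of 7 were called (median -0.15), with PSBW at 13.69, 13.75 and 13.81 in WT dehydrated and 14.16, 13.77 and 13.89 in WT control seedlings. PSBW (-0.19) and PSAN (-0.18) had the smallest p of the class and did not pass. Of the plastid-encoded transcripts, psbK, a small subunit of photosystem II, was at 12.68, 12.29 and 12.16 in WT dehydrated and 13.27, 13.47 and 12.99 in WT control seedlings (-0.87 ± 0.19). Also plastid-encoded, psbI fell by 0.78 ± 0.19, a call that ended without WT dehydrated replicate 2 (-0.71) or 3 (-0.70). The plastid gene rbcL went the other way (0.45). It was not called with all arrays but was called higher without WT control replicate 1 (0.57). Apart from these plastid genes, SECE1, of the thylakoid protein import machinery, fell by 0.61 ± 0.13. SECE1 had 9.87 to 9.99 in WT dehydrated and 10.54 to 10.57 in WT control seedlings, and was not called in a fit of the WT arrays alone.

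In metabolism, UGT72E1, a glucosyltransferase of lignin precursors, was at 9.20, 9.14 and 9.70 in WT dehydrated and 10.35, 10.26 and 10.27 in WT control seedlings (-0.94 ± 0.20), and the related UGT85A4 fell by 1.23 ± 0.27, a call that ended without WT dehydrated replicate 1 (-1.02) or 2 (-1.12). IVD, a mitochondrial enzyme of leucine breakdown, fell by 0.83 ± 0.20, not without WT dehydrated replicate 1 (-0.65). ALN, the allantoinase of purine breakdown, was at 8.11, 8.05 and 8.14 in WT dehydrated and 8.90, 9.18 and 8.76 in WT control seedlings (-0.85 ± 0.19), a call that ended without WT dehydrated replicate 2 (-0.82). MSRA5, which repairs oxidised methionine, fell by 0.79 ± 0.15. Apart from the UDP-glycosyltransferases, these genes were chosen after the values were seen.

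Falls also touched single genes of organelle division, the cytoskeleton, membrane traffic and protein folding, some of them chosen after the values were seen. FIS1B, of mitochondrial and peroxisomal fission and chosen after the values were seen, had a call that held in every alternative. It was at 8.23, 8.18 and 8.45 in WT dehydrated and 9.13, 9.54 and 9.03 in WT control seedlings (-0.94 ± 0.18). Of 8 tubulins and actins, TUB5, a beta-tubulin, fell by 0.62 ± 0.14 and ACT11, an actin, rose by 0.82 ± 0.21. TUB5 was not called without WT dehydrated replicate 2 (-0.58), and ACT11 not without any of the WT dehydrated arrays (0.76 to 0.85). Of 11 genes of exocytosis and syntaxins, AtSec20, a SNARE of the endoplasmic reticulum, was the only one called (-0.67 ± 0.15; -0.58 and not called without WT dehydrated replicate 2). Fes1B and Fes1C, exchange factors of Hsp70 chaperones picked after the values were seen, fell by 1.20 ± 0.27 and 0.77 ± 0.18. The third tested member, Fes1A, differed by 0.42 and was not called with all arrays, but was called higher without WT control replicate 1 (0.66). The call of Fes1B ended without WT dehydrated replicate 1 (-1.15) or 2 (-1.10), and that of Fes1C without WT dehydrated replicate 1 (-0.57). Other folding genes went the other way: Hsp70-2 (1.30 ± 0.37) and the chaperonin subunit Cpn60beta2 (1.09 ± 0.23) were called higher. The call of Hsp70-2 ended without WT control replicate 2 (0.86) or WT dehydrated replicate 1 (0.93) or 2 (1.36), and in other alternatives such as the WT arrays alone. Among genes of chromatin and development, ULT1, a regulator of stem cells in shoots and flowers, was at 8.39, 8.89 and 8.80 in WT dehydrated and 9.29, 9.67 and 9.53 in WT control seedlings (-0.80 ± 0.17; not called in the WT arrays alone). HON4, a linker histone, was the only 1 of 6 histone genes called (-0.60 ± 0.17), and its call ended without WT control replicate 3 (-0.45) or WT dehydrated replicate 1 (-0.49) or 3 (-0.62). LSM1A, of mRNA decay, was the only 1 of 8 genes of RNA decay and translation called (-0.57 ± 0.17). Its call ended without WT control replicate 1 (-0.37) or 2 (-0.58) and without any of the WT dehydrated arrays (-0.53 to -0.62). P1R3 fell by 1.49 ± 0.33, and its call held in every alternative.

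**Figure D4:**
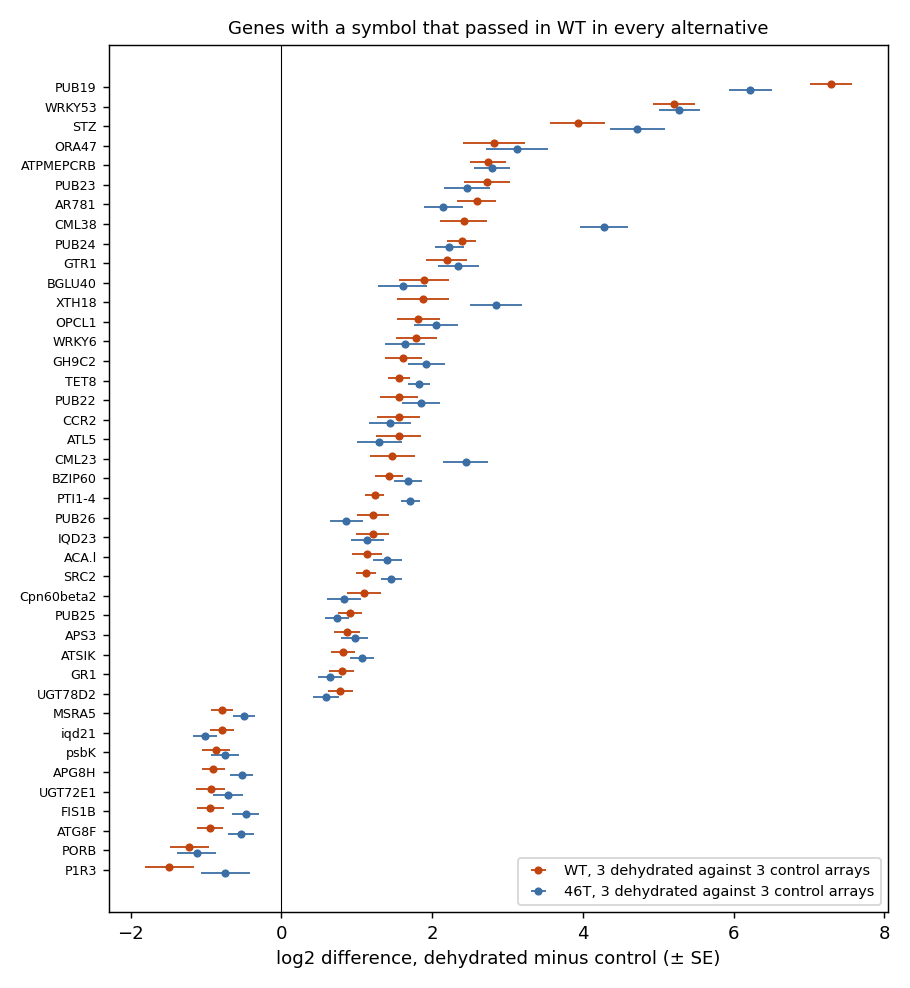
Genes with a symbol whose call in WT held in every alternative, 1 row a gene. The horizontal axis is the log2 difference, dehydrated minus control, with bars of 1 SE; WT is in red above 46T in blue, 3 dehydrated against 3 control arrays in each line. PUB19 lies at 7.29 in WT and 6.22 in 46T, and all genes shown have the same sign in both lines.

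Several of the classes drawn up had no called member. They hold only the genes that the annotation names, so drought genes outside them were not covered. Of 12 named LEA and dehydrin probe sets 6 were tested, and none was called (median difference 0.22). LEA4-5 was at 7.28, 7.18 and 5.37 in WT dehydrated and 5.66, 4.35 and 5.58 in WT control seedlings (1.41 ± 0.59; limma adjusted p = 0.140), so that the groups overlapped. LTI30, a dehydrin, was at 9.98, 10.20 and 9.68 in WT dehydrated and 9.36, 9.89 and 8.66 in WT control seedlings (0.65 ± 0.27; limma adjusted p = 0.147). None of the 9 glutathione transferases (median 0.08), the 13 cytochromes P450 (median -0.04), the 8 bHLH factors (median -0.15) or the 3 HD-Zip factors was called by limma. All the tested cytochromes P450 except CYP84A4 belonged to the CYP71B group. Without WT control replicate 1, 1 glutathione transferase was called higher (GSTU20, 0.99, against 0.61 with all arrays), 1 cytochrome P450 lower (CYP71B26, -0.72, against -0.59) and 1 bHLH factor lower (bHLH121, -1.30, against -0.76). Of the 50 classes drawn up, 25 had at least 3 tested members and 9 had none, since only 1168 of the 14495 tested probe sets carry a gene name.

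Leaving out WT control replicate 1 kept 970 of the 1057 rises and 508 of the 623 falls, and no call changed its sign. It added 251 rises and 643 falls. Of the added falls, 627 had WT control replicate 1 below both other control arrays, and of the added rises 240 had it above both. A total of 202 probe sets were called only with that array. Among the added calls with a gene name, 51 were lower and 21 higher. All 20 largest rises and 20 largest falls remained called without it, since the rule that named them asked for this.

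**Figure D5:**
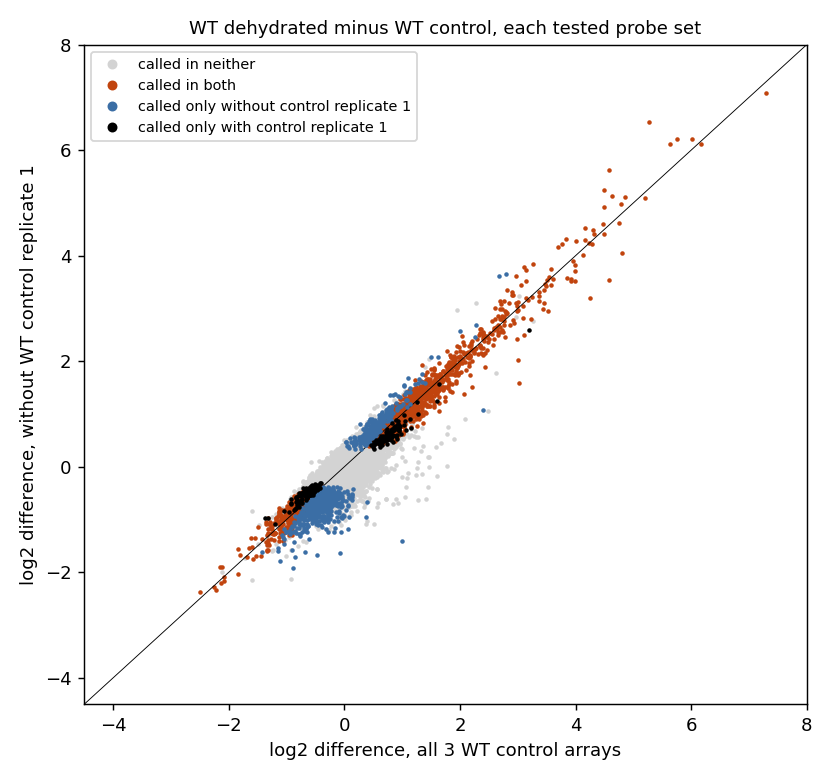
Differences with and without WT control replicate 1 for each of the 14495 tested probe sets. Both axes are log2 differences, WT dehydrated minus WT control, with 3 control arrays on the horizontal and 2 on the vertical axis; colours show where a probe set was called, and the 643 added falls and 251 added rises (blue) lie mostly close to 0, with falls below the diagonal line of equal values.

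The same treatment in 46T gave values on the same side for nearly all WT calls. Of the 1057 rises, 1053 were positive in 46T, and of the 623 falls 620 were negative there, against 75.8% of all tested probe sets with the same sign in both lines. PUB19 differed by 7.29 ± 0.28 in WT and 6.22 ± 0.28 in 46T, CML38 by 2.41 ± 0.31 in WT and 4.28 ± 0.31 in 46T, and FIS1B by -0.94 ± 0.18 in WT and -0.47 ± 0.18 in 46T. The test of the difference between the lines called 0 of 14495 probe sets (limma, smallest adjusted p = 0.9999), with 291 at an unadjusted p below 0.05 (2.01%). With array weights it called 1 and with the floor at the 40th percentile 2. The count at an unadjusted p below 0.05 depended on the WT control arrays. It was 558, 815 and 654 without WT control replicate 1, 2 and 3, and 1216 with array weights. Leaving out 1 WT dehydrated array gave 231 to 347. The lack of calls does not show that both lines responded alike. No WT change described here was therefore shown to differ in 46T.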

How the data were processed

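Total RNA of whole seedlings was labelled through a 3' in vitro transcription kit and hybridised to 1-colour ATH1 arrays, per the labels' protocols. The authors deposited 1 log2 signal per probe set and array, made with MAS5 (per the submitters' notes on processing; version not given in the sources used here). Raised to the linear scale, each array's mean after trimming 2% at each end was 500.0 to 500.1, so the table was not normalized again. The 64 control probe sets were left out. Probe sets were fitted in R 4.3.3 with limma 3.58.1 (4 group means over all 12 arrays, eBayes with an intensity trend), two-sided, with Benjamini-Hochberg adjustment over 14495 probe sets; called means an adjusted p below 0.05. The number of arrays limits the precision, and p-values measure the spread between the arrays, called biological replicates in the labels. On simulated data with 100 probe sets changed 2-fold and 100 changed 4-fold, 77% and 98% were recovered for this comparison. In the same simulation 12 unchanged probe sets were called. The changed probe sets were drawn only from those at or above the median mean level. Noise was normal, with each probe set's spread pooled over the groups. The real WT control arrays were less alike than the others, so recovery in the real comparison may be lower.

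Genes were named from the platform annotation, updated through the RefSeq gene table of TAIR10.1; 13513 probe sets name 1 gene, of which 13436 matched, 503 name several and 8730 non-control probe sets are unnamed. The genes named by rule are the 20 largest rises and 20 largest falls among calls naming 1 gene, with no overlap of the groups, the larger group mean no lower than the median tested value, and a call without WT control replicate 1. The rule adds up to 5 called members (or 2 not passed) of each gene class with at least 3 tested. Members, lists and tests were chosen with earlier results of these data known. Promoter and protein sequences were not used here. Alternatives changed the scaling, the handling of low signals, the filter, the variance model and the arrays.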

Additional observations from a re-analysis of the deposited data

How the results depend on the processing

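Against 1680 calls (1057 higher, 623 lower), a fit of the 6 WT arrays alone gave 751 (607 higher, 144 lower) and array weights, which gave WT control replicates 1, 2 and 3 weights of 0.14, 0.30 and 3.84, gave 3469 (1759 higher, 1710 lower). Leaving out 1 WT array at a time gave 833 to 2372 calls, 623 to 1221 higher and 210 to 1151 lower. Quantile normalization, median centring, the pseudocount of 50, the floor, no filter, the stricter filter and no intensity trend gave 1444 to 1749 calls. The interaction called 1 probe set with array weights and 2 with the floor. Of the 162 named genes that passed, 67 kept their call in every alternative in which they were tested; calls were lost in 443 of 2572 gene-by-alternative results, and 0 changed sign. Of the genes that did not pass, PHV changed sign: it differed by 0.51 with all arrays and by -0.090 (without WT control replicate 1) to 0.93 (without replicate 2) when 1 WT array was left out. The causes were not tested.

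Replicate numbers were not taken to pair the samples: deviations of WT dehydrated and WT control arrays of the same number correlated at 0.35, 0.29 and 0.07, although each array correlated best with its own number. The replicate block gave 1778 calls, 1123 higher and 655 lower, and its interaction test called 0. MAS5 signals near the bottom of the scale vary most, so large differences from a low control level are uncertain.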

Other observations

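Genes called only without WT control replicate 1 were looked at after their values were seen, and are given as values. In those given here, that array was the lowest control where the gene fell and the highest where it rose. Larger differences without that array therefore followed from the choice of these genes. With IVD (-0.99 without that array), other mitochondrial genes of leucine breakdown were lower: MCCA and MCCB, the 2 subunits of methylcrotonyl-CoA carboxylase, at -0.97 and -0.78, and ETFQO, which passes the electrons of IVD to the respiratory chain, at -0.74. With all arrays these 3 differed by -0.57, -0.52 and -0.31 and were not called. LCB2, a subunit of the enzyme that starts sphingolipid synthesis, was at -0.87 without that array and -0.62 with it. Among the genes higher without it, BCAT4, of methionine-derived glucosinolate synthesis, was at 1.08 (0.76 with all arrays), and the tetraspanin TET9 at 3.65 (2.80 with all arrays), with control values of 5.21, 1.36 and 3.96 near the bottom of the scale.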
